A study of Mus musculus with 12 samples.

Results

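Endothelial cells sorted from the epididymal fat pad were compared between male mice on a high fat diet and male mice on normal chow, with 3 libraries on each diet. These are 6 of the 12 libraries of the series, and the other 6 hold the same sort from the mesentery, in which the gut hangs. All mice were ROSA26-eYFP+/+ Cdh5-CreERT2+, so tamoxifen switched on a yellow fluorescent protein in cells with an active Cdh5 promoter, Cdh5 being the gene of the endothelial junction protein VE-cadherin. Tamoxifen was in the food for 2 weeks from the age of 6 weeks, and from 8 weeks the animals ate either normal chow (NC, 5.8% fat) or the high fat diet (HFD, 60% fat) for 12 to 13 weeks. Fluorescent cells were sorted from digested tissue that had been pooled over 6 mice a sample. The fluorescence marks cells by their Cdh5 activity at the time of tamoxifen, and the pooling hides the spread between single mice. Of 27825 genes in the deposited table, 21790 had a mean of at least 10 normalized counts over the 6 libraries and were tested.

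Blood vessels of fat hand fatty acids from the blood to fat cells: lipoprotein lipase, held on the vessel wall by Gpihbp1, frees them from lipoproteins, and Cd36, Fabp4 and caveolae carry them across the endothelium. In obese fat, macrophages gather around dying fat cells, take up their lipid and switch on a lysosomal program with Trem2, Gpnmb, Lipa and cathepsins, for which they are called lipid-associated macrophages. Fat cells themselves make hormones such as adiponectin, adipsin and resistin, and new fatty acids through Fasn and Scd1.

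Values below are normalized counts, always in the order of replicates A, B and C of a diet, and changes are high fat diet minus chow in log2(normalized count + 1); changes of genes with few counts come out too small in this measure. The 6 libraries held 12424431 to 25397963 reads in genes, and 3 reads corresponded to 2.12 to 3.37 normalized counts. The descriptions number the libraries 50 to 53, or 87 and 88. The libraries numbered 87 (chow replicate C) and 88 (high fat replicate A) stood apart from the other 4: the first principal component, with 70.8% of the variance, separated them, and they had reads on 27558 and 27691 genes against 23264 to 26779. Olfactory and vomeronasal receptor genes, which are known from sensory neurons, were at 2014 and 2158 CPM in these libraries and 104.9 to 192.6 in the others. Each diet had 1 of the pair. The labels speak of 2 independent repeats but give 3 letters, so the p-values measure the spread between these libraries, which may be partly technical.

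The sort was checked first. Cdh5 was at 3177, 4456 and 3778 normalized counts on chow against 2172, 4627 and 2560 on the high fat diet, and the platelet and endothelial adhesion molecule Pecam1 was at 6199, 7472 and 6187 against 3730.1, 6515 and 5003. Both genes were well measured in every library, their groups overlapped and neither passed the test (Cdh5 log2 change -0.35, SE 0.28, adjusted p 1; Pecam1 -0.41, SE 0.21, adjusted p 0.803). Transcripts of other cell types were present in all libraries as well. Haemoglobin genes were at 2343 to 3709 CPM. Markers of macrophages, fat cells, fibroblasts and mural cells are given with the results they accompany. In bulk samples, fewer cells of a type and less RNA per cell cannot be told apart.

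On the high fat diet, genes of lysosomes and lipid-laden macrophages rose, together with a few fibroblast and cell cycle genes, and genes of fat cells, of fatty acid synthesis and of foreign compound metabolism fell. Of the 21790 genes, 117 passed an adjusted p of 0.05 (0.537%), 88 of them with a rise (0.404%) and 29 with a fall (0.133%). Without adjustment 1558 genes had a p under 0.05 (7.15%). The groups of the 117 did not overlap in any case, against 7.07% of all genes tested higher without overlap and 6.84% lower. The smallest change among the 117 was 1.027 on the log2 scale. Both come from the values that chose the genes and are descriptions. The median change was 2.03 among the higher genes and -2.07 among the lower, against 0.09 over all genes tested. An edgeR quasi-likelihood test on the recovered reads called 35 genes (0.161%), all among the 117, and DESeq2 on the same reads called 572 of the 13279 genes to which it gave an adjusted p (4.31%). Where no tool is named below, rose, fell and passed refer to limma. A list without a limma call had none by edgeR either, and its calls by DESeq2 are given. List counts of unadjusted p-values under 0.05 stand against the 7.15% of all genes tested, and counts of DESeq2 calls against its 4.31%. With the columns rescaled to the same total, which shifted the median of all genes by -0.137, 68 genes were higher and 39 lower, so that 63.6% of calls were higher in place of 75.2%.

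**Figure D1:**
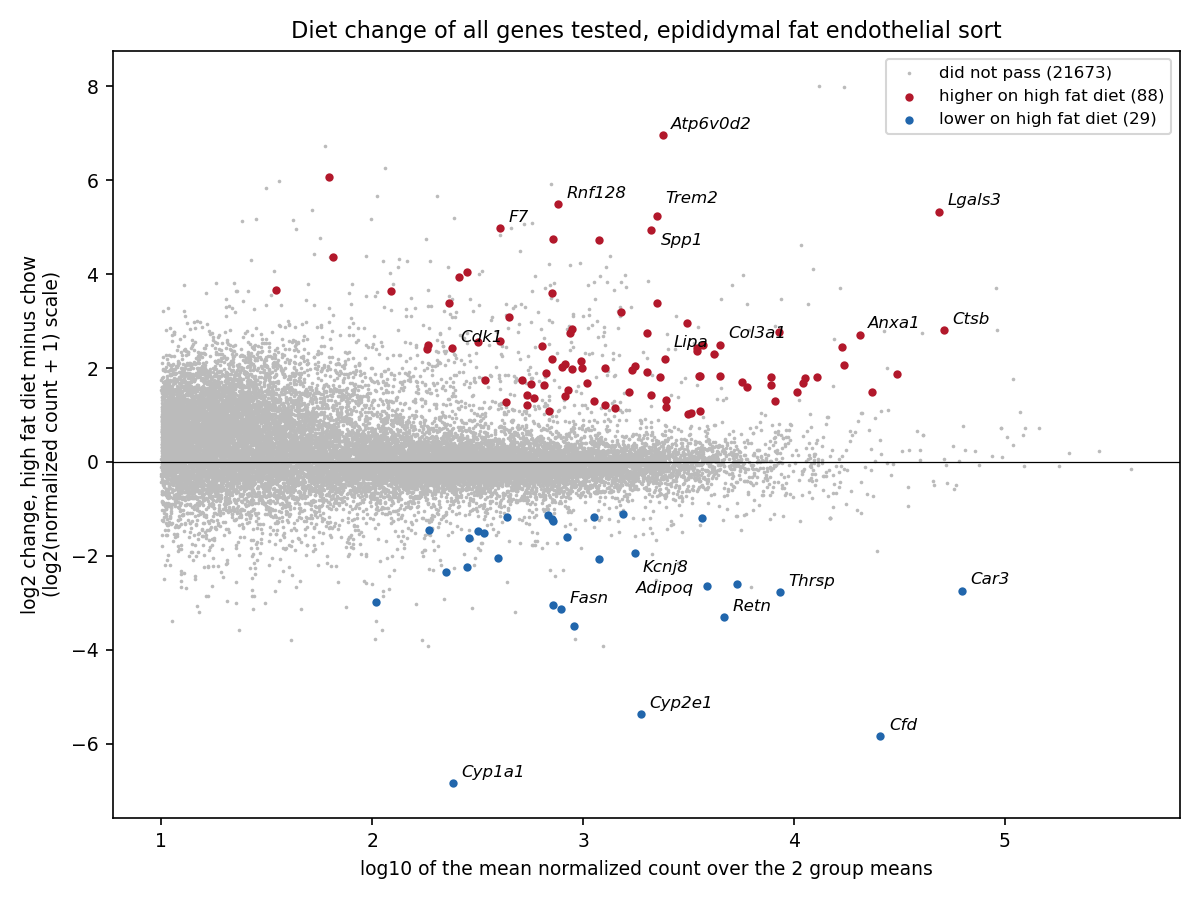
Log2 change (high fat diet minus chow) of the 21790 genes tested against the log10 of their mean normalized count in epididymal fat; each point is a gene, and genes that passed an adjusted p of 0.05 are coloured. The 88 higher genes reach from low to high levels, with Lgals3 and Ctsb among the abundant ones, and Cyp1a1, Cfd and Cyp2e1 lie lowest.

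Single libraries decided how many genes passed. Without chow replicate A 35 genes passed, without chow replicate C 53, without high fat replicate A 37 and without high fat replicate C 23. Without chow replicate B 132 genes passed and without high fat replicate B 167. Without both libraries numbered 87 and 88, which leaves 2 libraries a diet, 21 passed, 8 higher and 13 lower, of which 16 were among the 117. All 117 kept the sign of their change, but leaving out libraries cannot reverse it where groups do not overlap. With the number range as a covariate all 117 passed, among 169 in all. A group of 10 genes passed under all 19 alternative settings: Anxa1, Pld3 and Lipa were higher, and Kcnj8, Thrsp, Fasn, Retn, Cyp2e1, Cfd and Cyp1a1 were lower. Each other gene named below as risen or fallen lost its call under at least 1 of these settings. Adam8 kept it under 8 of 19 and Car3 under 10 of 19. EdgeR called 2 of the 7 lipid-associated macrophage genes that passed and 5 of the 10 lysosomal genes. It called 1 of 3 fibroblast, 1 of 2 cell cycle, 2 of 4 adipocyte and 2 of 4 foreign compound genes that passed. Atp6v0d2, Trem2, Spp1, Lgals3 and Adipoq were not called by edgeR (adjusted p 0.0667 to 0.152).

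Of 16 markers of lipid-associated macrophages 7 rose, against 0.404% of all genes tested, and none fell. The list's median change was 2.83. Among the 7 were Atp6v0d2, Lipa and Ctsl, which are also on the lysosomal list below. Trem2 (ENSMUSG00000023992), the lipid-sensing receptor of these cells, was at 97.9, 162 and 74.6 normalized counts on chow against 5977, 2295 and 4874 on the high fat diet (log2 change 5.25, SE 0.89, adjusted p 0.0195). Spp1, which encodes the secreted matrix protein osteopontin, was at 179, 139 and 79.7 against 4812, 2558 and 4811 (log2 change 4.94, SE 0.73, adjusted p 0.00931). For the galactose-binding lectin Lgals3, the values were 1789.5, 4832 and 1249 on chow against 106186, 52591 and 127700 on the high fat diet (log2 change 5.34, SE 0.94, adjusted p 0.0244). In each of these genes every high fat library lay far above every chow library, and high fat replicate B was the lowest of its group. The lipid droplet coat protein Plin2 was at 7317, 6426 and 6001 against 28082, 20548 and 35341 (log2 change 2.06, SE 0.35, adjusted p 0.0211).

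The largest changes in this list missed the threshold. Gpnmb, a glycoprotein of lipid-laden macrophages, was at 117, 87.7 and 152 normalized counts on chow against 51466, 13675 and 37943 on the high fat diet (log2 change 8.00, SE 1.80, adjusted p 0.0803), and the elastase Mmp12 was at 51.7, 391 and 33.7 against 32080.2, 10896 and 35723 (log2 change 8.02, SE 1.69, adjusted p 0.0615). Their groups did not overlap. In a fit of the 6 epididymal libraries alone both passed, with adjusted p 0.00027 for Gpnmb and 0.0066 for Mmp12. Of the 16 listed genes, 15 had higher values in every high fat library than in any chow library, against 7.07% of all genes tested; the exception was the phospholipase Pla2g7, at 2669, 1588 and 397 against 1264, 1364 and 2657. Calls in this list fell to 3 without chow replicate A, 3 without chow replicate C, 2 without high fat replicate A and 2 without high fat replicate C. Without the libraries numbered 87 and 88, the 4 genes that passed were Trem2, Lgals3, Lipa and Gpnmb.

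General macrophage markers had higher values in every gene of the list (median 2.85), but none of the 16 passed with limma. An unadjusted p under 0.05 was found for 13, against 7.15% of all genes tested. DESeq2 called 3 (Cd14, Cd68 and Tyrobp), against 4.31% of the genes to which it gave an adjusted p. The leukocyte scavenger receptor Cd68 was at 715, 2154 and 325 normalized counts on chow against 22983, 12006 and 26841 on the high fat diet (log2 change 4.62, SE 0.99, adjusted p 0.065), the signalling adaptor Tyrobp was at 833, 4001 and 682 against 17516, 8735 and 20583 (log2 change 3.48, SE 0.73, adjusted p 0.0615), and the surface receptor Adgre1 was at 77.5, 459.6 and 51.1 against 3112, 1191 and 2824 (log2 change 4.15, SE 1.21, adjusted p 0.209). Chow replicate B was high in these genes. In 12 of the 16 listed genes every high fat library still lay above every chow library, against 7.07% of all genes tested. Summed over the list, chow libraries had 14050, 100500 and 8127 normalized counts and high fat libraries 232100, 158400 and 403000. By contrast, the sum of the lipid-associated list was 66360, 74250 and 68780 on chow against 392300, 207700 and 400600 on the high fat diet, a sum carried by its most abundant genes. Chow replicate B stood out in the general markers, and among the lipid-associated ones in Lgals3, Mmp12 and Itgax but not in Gpnmb, Spp1 or Plin2. Without chow replicate B, 5 general markers passed: Cd14, Cd68, Fcer1g, Lyz2 and Tyrobp. No marker of the list was at 0 in any library.

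Genes of antigen presentation and of inflammation were mostly higher as well, without passing. The 7 genes of MHC class II, which present peptides to helper T cells, had changes of 2.01 to 2.88 and no call by limma or DESeq2. All 7 had an unadjusted p under 0.05, against 7.15% of all genes tested. Their sum was 23500, 199200 and 7932 normalized counts on chow against 134800, 155500 and 566400 on the high fat diet. Chow replicate B was above high fat replicates A and B in this sum, and the groups overlapped for all 7 genes. None of 19 cytokine and chemokine genes passed with limma (median 2.20), although 11 were higher without overlap, against 7.07% of all genes. An unadjusted p under 0.05 was found for 9, against 7.15% of all genes tested. DESeq2 called 3 (Ccl2, Ccl7 and Ccl8), against 4.31% of the genes to which it gave an adjusted p. The monocyte attractant Ccl2 was at 533, 1006 and 185 against 1725, 1836 and 3053 (log2 change 2.20, SE 0.57, adjusted p 0.153), and the interleukin-1 antagonist Il1rn at 34.5, 103 and 79.7 against 1515, 799 and 1598 (log2 change 4.22, SE 1.55, adjusted p 0.43). Without chow replicate B the chemokines Ccl6 and Cxcl2 and the MHC class II chaperone H2-DMb1 passed. T and B cell markers had a median change of 1.47, with no call by limma or DESeq2, no unadjusted p under 0.05, and overlapping groups in all 11 genes.

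**Figure D2:**
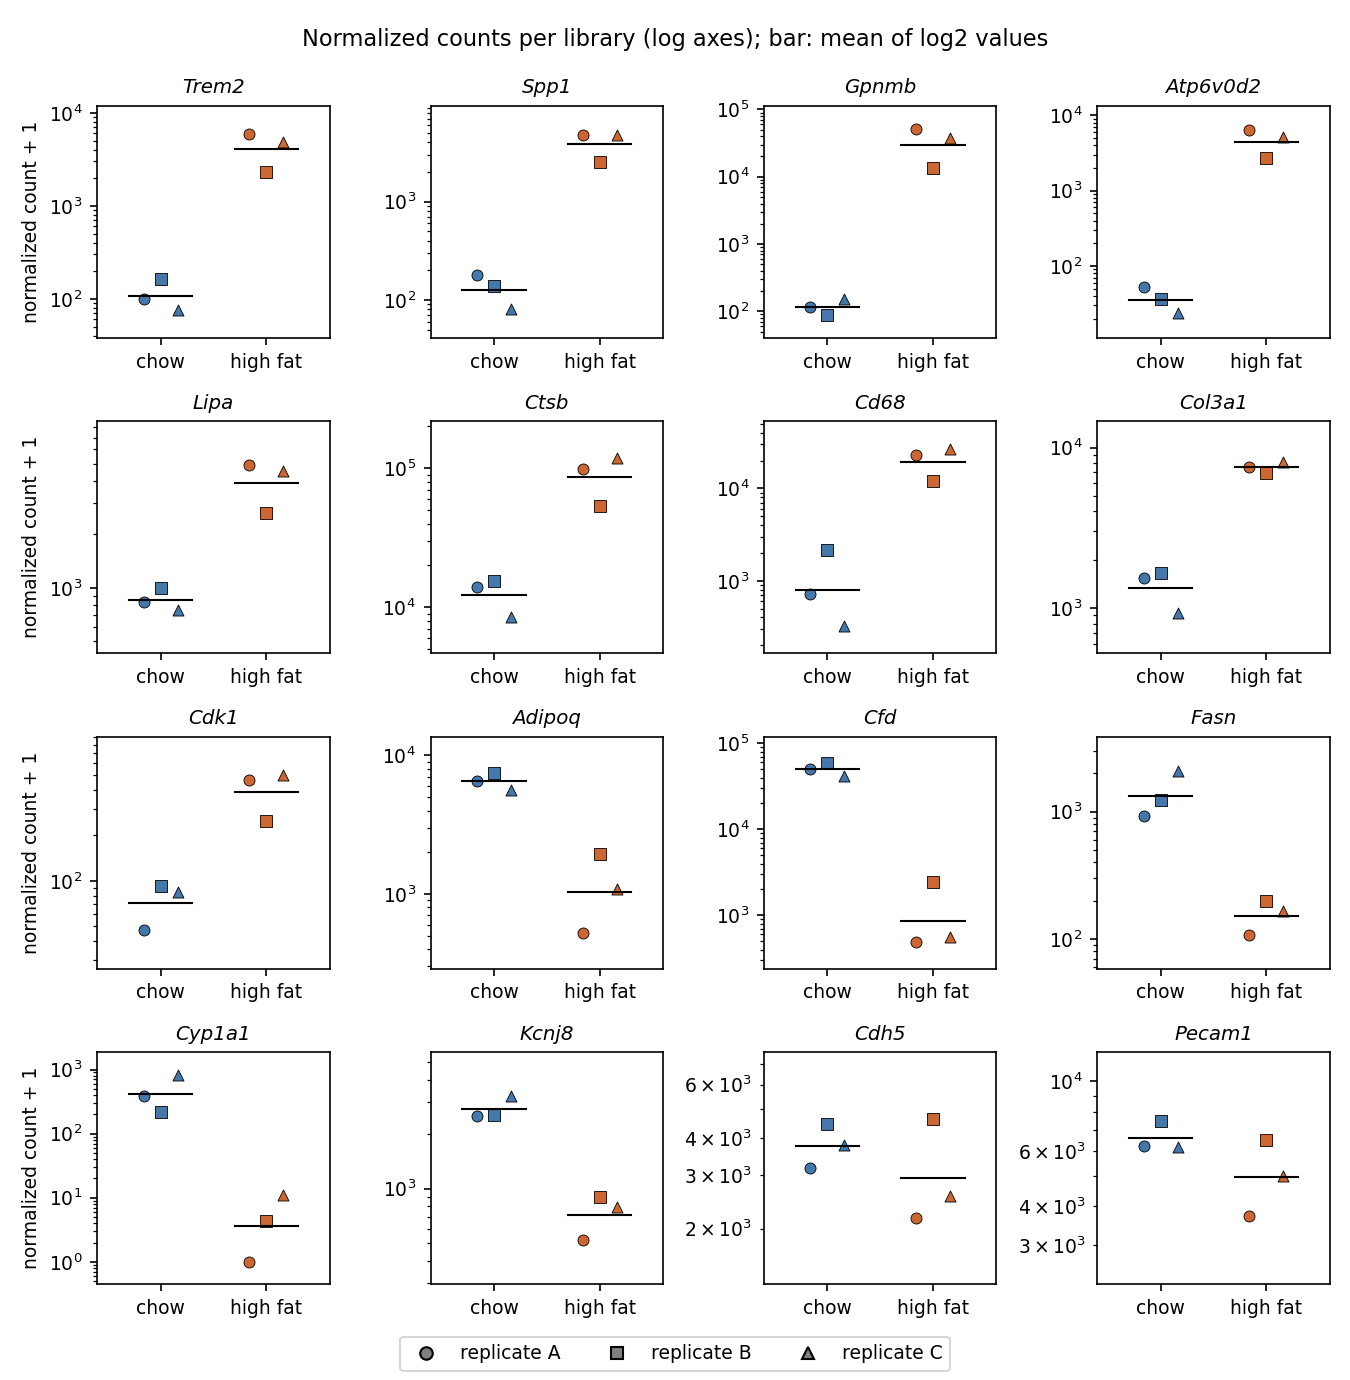
Normalized count + 1 of 16 genes in each epididymal library on log axes; circles, squares and triangles are replicates A, B and C, blue is chow, orange is the high fat diet, and bars are the mean of log2 values. In Trem2, Spp1, Gpnmb, Atp6v0d2, Lipa and Ctsb the high fat libraries all lie above the chow libraries with replicate B lowest, and in Adipoq and Cfd they lie below with replicate B highest.

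Of 30 lysosomal genes 10 rose, against 0.404% of all genes tested, and none fell. Those that rose included the proton pump subunits Atp6v0d2 and Atp6v1b2 and the proteases Ctsa, Ctsb, Ctsd, Ctsk, Ctsl and Ctsz. The others were the lysosomal acid lipase Lipa and the hexosaminidase subunit Hexa. Atp6v0d2, Lipa and Ctsl are also lipid-associated macrophage markers and were counted above as well. The median of the list was 1.11, and 25 of 30 genes were higher without overlap between diets, against 7.07% of all genes tested. Atp6v0d2 showed the largest rise of the 117 genes, with 51.7, 35.6 and 22.5 normalized counts on chow against 6335, 2746 and 5134 on the high fat diet (log2 change 6.97, SE 1.15, adjusted p 0.017). Lipa (ENSMUSG00000024781), which splits cholesteryl esters and triglycerides in lysosomes, was at 834, 1001 and 751 against 4919.5, 2637 and 4539.7 (log2 change 2.18, SE 0.23, adjusted p 0.00243); its smaller change had the smaller error. Ctsb was at 13938, 15581 and 8511 against 98942, 53913 and 119280 (log2 change 2.81, SE 0.36, adjusted p 0.00459), and the aspartic protease Ctsd at 5206, 5812 and 4000.2 against 37459.5, 16165 and 32360.4 (log2 change 2.45, SE 0.36, adjusted p 0.00887). In all 4 genes the high fat libraries stood clear of the chow libraries, and high fat replicate B was the lowest of its group.

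Other genes of the list moved little or missed the threshold. The cathepsin Ctss was at 1001, 4131 and 448 normalized counts on chow against 21921, 13381 and 33272 on the high fat diet (log2 change 4.12, SE 0.96, adjusted p 0.0951), with chow replicate B high as in the general macrophage markers. The membrane protein Lamp2 (log2 change 0.35), the calcium channel Mcoln1 (0.11) and the transcription factor Tfeb (0.24), which activates lysosomal genes, had small changes, whereas the related factor Mitf was at 26.6, 36.5 and 30.6 against 183, 62.8 and 119 (log2 change 1.81, SE 0.59, adjusted p 0.299). Without high fat replicate C, 4 lysosomal genes passed, and without the libraries numbered 87 and 88 only Lipa did (log2 change 1.92, adjusted p 0.0481). The sum of the list was 89390, 96430 and 64360 on chow against 325800, 204600 and 370900 on the high fat diet. Macrophage markers were higher in the same libraries, and their part in the lysosomal change was not tested.

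Promoters are shown for 3 lists that hold called genes and for which a sequence element is known. The element TCACGTGA, which Tfeb and related factors bind, was searched on both strands in the 250 bases before each start site of the RefSeq promoters (build GRCm38.p6, which is not the build of the deposited data). It was present for 5 of 21 lysosomal genes that matched the table (23.8%), namely Atp6v1a, Ctsa, Ctsd, Gla and Mcoln1, and for 1.5% of the 13413 genes tested that matched. Over the 88 higher genes, 2 of the 66 that matched held it (3.03%). The element CCAAT was present for 11 of 14 cell cycle genes (78.6%) and for 39.9% of the genes tested, and GCGTG, the core bound by the aryl hydrocarbon receptor, for 6 of 12 genes of foreign compound metabolism (50%) and for 43.5%. Of the genes that passed and matched, 2 of 7 lysosomal, 1 of 2 cell cycle and 1 of 3 foreign compound genes held the element of their list. A match is a description of the letters and not evidence of binding. The 4 sequences below belong to genes that passed the test and hold the element of their list, which is in capitals on whichever strand it lies (ATTGG is CCAAT on the other strand). For Ctsa the table lists 2 start sites, and the one shown holds the match.
Ctsd, minus strand, chr7:142387828-142388077: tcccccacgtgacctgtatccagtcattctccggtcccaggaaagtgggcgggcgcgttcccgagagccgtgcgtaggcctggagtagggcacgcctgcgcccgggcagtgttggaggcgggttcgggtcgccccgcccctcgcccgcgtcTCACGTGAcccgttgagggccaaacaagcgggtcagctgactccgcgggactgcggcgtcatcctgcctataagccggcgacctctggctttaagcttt
Ctsa, plus strand, chr2:164833523-164833772: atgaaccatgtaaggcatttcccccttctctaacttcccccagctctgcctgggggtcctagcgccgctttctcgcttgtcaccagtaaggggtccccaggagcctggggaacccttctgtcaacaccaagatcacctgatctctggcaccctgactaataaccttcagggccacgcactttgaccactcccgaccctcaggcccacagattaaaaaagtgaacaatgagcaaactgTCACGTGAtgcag
Cdk1, minus strand, chr10:69352913-69353162: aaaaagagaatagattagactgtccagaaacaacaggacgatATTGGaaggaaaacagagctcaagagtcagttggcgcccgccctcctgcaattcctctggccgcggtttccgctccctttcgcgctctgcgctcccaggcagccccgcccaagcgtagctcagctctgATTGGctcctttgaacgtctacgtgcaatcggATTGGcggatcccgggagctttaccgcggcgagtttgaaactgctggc
Cyp1a1, plus strand, chr9:57697363-57697612: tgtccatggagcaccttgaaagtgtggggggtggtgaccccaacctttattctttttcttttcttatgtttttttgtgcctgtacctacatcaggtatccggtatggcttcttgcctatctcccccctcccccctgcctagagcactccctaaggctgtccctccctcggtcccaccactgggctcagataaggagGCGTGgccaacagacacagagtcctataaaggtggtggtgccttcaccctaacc

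The 15 genes with the largest rise were taken from called genes with non-overlapping groups and a mean of at least 100 on high fat. They included 4 markers given above (Atp6v0d2, Lgals3, Trem2 and Spp1) and 11 others. Several are known from myeloid cells. The ubiquitin ligase Rnf128 was at 23.5, 84.3 and 12.3 normalized counts on chow against 1962, 722 and 1771 on the high fat diet (log2 change 5.49, SE 0.99, adjusted p 0.026), the immunoglobulin-like receptor Cd300c2 at 56.4, 246 and 34.7 against 2965, 1194 and 2653 (log2 change 4.73, SE 0.83, adjusted p 0.0244), and the metalloprotease Adam8 at 28.2, 189 and 17.4 against 1707, 666 and 1723 (log2 change 4.75, SE 0.95, adjusted p 0.0487). Chow replicate B was the highest chow library in these 3 genes and, as that rule required, lay below every high fat library. The receptor Igsf6 was at 94.0, 258 and 43.9 against 1438, 855 and 1567, the peptide transporter Slc15a3 at 14.1, 33.9 and 9.19 against 220.3, 150.3 and 311, and the interleukin-7 receptor Il7r at 15.7, 51.3 and 28.6 against 781, 272 and 549.9.

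The remaining genes of this set are of other kinds. Coagulation factor VII, F7, was at 15.7, 37.4 and 20.4 normalized counts on chow against 731, 539 and 1079 on the high fat diet (log2 change 4.98, SE 0.89, adjusted p 0.026). The secreted hormone-like protein Metrnl was at 299, 765 and 201 against 3299.5, 2468 and 6471 (log2 change 3.38, SE 0.57, adjusted p 0.0187), the DNA translocase Zranb3 at 16.4, 36.5 and 29.6 against 833, 203 and 427, and the membrane protein Vsig8 at 3.13, 6.95 and 5.11 against 165, 80.9 and 130.2. Groups did not overlap in any of them, as the rule for this set required. For the antisense transcript Dnmt3aos the values were 0, 0.869 and 2.04 on chow, which is at most 2 reads a library, and 141, 82.6 and 148 on the high fat diet. Use of strand in counting is not given in the sources used here, so its reads cannot be told apart from those of the Dnmt3a locus on the opposite strand.

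Further genes among the 117 were picked out after their values were seen. Annexin A1, Anxa1, which restrains inflammation, was at 5436, 6409 and 4239 normalized counts on chow against 35808, 24661 and 47102 on the high fat diet (log2 change 2.71, SE 0.32, adjusted p 0.00338), and the lysosomal phospholipase D family member Pld3 at 1313, 1225 and 844 against 6859, 3967 and 6686 (log2 change 2.35, SE 0.27, adjusted p 0.00338). Both had clear gaps between the diets. Soat1, which forms cholesteryl esters, was at 220.1, 215 and 142 against 1149, 728 and 1365, and Nceh1, which splits these esters, at 209, 286 and 221 against 1727, 643 and 1169. The saposin precursor Psap was at 12429, 16992 and 9126 against 46126, 29567 and 71080.2, and progranulin, Grn, at 4712, 5668 and 3594 against 12818, 8041 and 13864. Ferritin light chain copies (Ftl2 and Ftl1-ps2), Hmga1 with its near-identical copy Hmga1b, and the interferon-inducible genes Ifi205, Ifi207 and Ifi211 also rose, but each shares sequence with related genes and reads may have been split among them.

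Of 12 fibroblast genes 3 rose, against 0.404% of all genes tested, and none fell. The median change was 1.26. Values were higher in 10 of the 12 genes, and in 8 the groups did not overlap, against 7.07% of all genes tested. Collagen III, Col3a1, was at 1541, 1654 and 929 normalized counts on chow against 7560.2, 6989.8 and 8181 on the high fat diet (log2 change 2.50, SE 0.31, adjusted p 0.00408). The collagen-binding proteoglycan Lum was at 1974, 1399.6 and 972 against 6455, 6764 and 7409 (log2 change 2.30, SE 0.37, adjusted p 0.0148), and the microfibril protein Mfap5 at 1424, 1097 and 812 against 5203, 5451 and 6879 (log2 change 2.42, SE 0.39, adjusted p 0.016). In these genes the 3 high fat libraries lay close together, unlike in the macrophage genes. Pdgfra, the receptor that defines adipose fibroblasts, was 1 of the 2 listed genes with a negative change. It was at 1013, 512 and 178 against 210.2, 244 and 277 (log2 change -0.90), with overlapping groups. The proteoglycan Dcn was at 50685, 35229.5 and 15369 against 27526, 43559 and 38796, also with overlap. The sum of the list was 59630, 42630 and 20310 on chow against 53200, 68940 and 68000 on the high fat diet, also with overlap. A single gene of the list passed without chow replicate C, as without high fat replicate A and without high fat replicate C, and none without the libraries numbered 87 and 88.

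Of 24 genes of matrix and crosslinking none passed with limma, and the median change was 0.55. An unadjusted p under 0.05 was found for 5, against 7.15% of all genes tested. DESeq2 called Timp1 and Timp3, against 4.31% of the genes to which it gave an adjusted p. The protease inhibitor Timp1 came nearest, with 176, 85.1 and 53.1 normalized counts on chow against 966, 424 and 639 on the high fat diet (log2 change 2.77, SE 0.59, adjusted p 0.0617). Basement membrane collagen Col4a1 was at 4608, 4789 and 3564 against 3551, 6678 and 5083, with overlap. A related inhibitor, Timp3, was at 9750.5, 10579 and 6517 against 3224, 6161 and 4982 (log2 change -0.92, SE 0.25, adjusted p 0.169) and thus lay in the other direction from Timp1.

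Cell cycle genes had higher values on the high fat diet in all 16 cases (median 2.02). Of these 2 passed, against 0.404% of all genes tested that rose. The mitotic kinase Cdk1 was at 46.2, 91.2 and 83.7 normalized counts on chow against 465, 247 and 499.7 on the high fat diet (log2 change 2.43, SE 0.35, adjusted p 0.00887), and the survivin gene Birc5 at 54.8, 122 and 97.0 against 501, 334 and 801 (log2 change 2.55, SE 0.49, adjusted p 0.0384). The proliferation marker Mki67 was at 18, 56.5 and 51.1 against 156, 72.7 and 180.5 (log2 change 1.74, SE 0.99, adjusted p 0.9). The groups of 12 genes did not overlap, against 7.07% of all genes for this direction, and high fat replicates A and C were above replicate B in Cdk1, Birc5 and Mki67, as in the macrophage markers. Calls were 1 without chow replicate A, B or C, and 0 without high fat replicate A, without high fat replicate C and without the libraries numbered 87 and 88. Which cells these transcripts came from was not tested.

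Fat cell transcripts were lower on the high fat diet. Of 14 adipocyte genes 4 fell, against 0.133% of all genes tested, and none rose. The median change was -1.38. Adipsin, Cfd (ENSMUSG00000061780), a serine protease of the complement system, had the lowest adjusted p of all genes, with 50724, 58630.5 and 41784 normalized counts on chow against 486, 2440.3 and 556 on the high fat diet (log2 change -5.84, SE 0.46, adjusted p 0.00026). The hormone adiponectin, Adipoq, was at 6581, 7465 and 5585 against 526, 1951 and 1081 (log2 change -2.65, SE 0.40, adjusted p 0.0104), and resistin, Retn, at 7868, 9584 and 7657 against 424, 1769.8 and 782 (log2 change -3.31, SE 0.40, adjusted p 0.004). High fat replicate B kept the highest level of the 3 high fat libraries in each, still below every chow library. Carbonic anhydrase 3, Car3, was at 98532, 126573 and 89081 against 6682, 44318 and 12620.4 (log2 change -2.74, SE 0.54, adjusted p 0.0455).

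The other 10 fat cell genes did not pass. Leptin, Lep, was at 947, 1136 and 924 normalized counts on chow against 467, 1531 and 1029 on the high fat diet (log2 change -0.14), with overlapping groups, and the lipid droplet protein Cidec at 7125, 7891 and 6352 against 1847, 5787 and 3109 (log2 change -1.14, SE 0.45, adjusted p 0.508). Perilipin 1, Plin1, was at 974, 942 and 782 against 189, 431 and 217 (log2 change -1.78, SE 0.47, adjusted p 0.163). The groups of 10 of 14 genes did not overlap, all lower, against 6.84% of all genes tested. Summed over the list, the level was 195600, 238900 and 172800 on chow against 22020, 80970 and 36430 on the high fat diet. Calls numbered 2 without chow replicate A and 2 without high fat replicate C, and 3 (Adipoq, Cfd and Retn) without the libraries numbered 87 and 88. The source of these transcripts in a sort of fluorescent cells was not tested.

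Fatty acid synthesis genes were lower in all 14 cases, with a median of -1.43. Of these 2 passed, against 0.133% of all genes tested that fell. Fatty acid synthase, Fasn, was at 925, 1232 and 2098 normalized counts on chow against 107, 196 and 165 on the high fat diet (log2 change -3.14, SE 0.44, adjusted p 0.00884). Thrsp, a nuclear protein that accompanies lipogenesis, was at 12348, 13822 and 18264 against 1324, 3524 and 2111 (log2 change -2.77, SE 0.30, adjusted p 0.00243). The groups of 11 genes did not overlap, against 6.84% of all genes for this direction. The desaturase Scd1 came near the threshold with 10966, 11865 and 8724 against 821, 3449.5 and 1561 (log2 change -2.67, SE 0.56, adjusted p 0.0583), and it passed without the libraries numbered 87 and 88. Without high fat replicate B 4 genes passed, Scd1 and the acyltransferase Agpat2 in addition. Chow replicate C was highest in Fasn and Thrsp and lowest in Scd1 among the chow libraries.

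Enzymes that handle foreign compounds fell in 4 of 16 cases, against 0.133% of all genes tested. Cyp1a1 (ENSMUSG00000032315), the classic target of the aryl hydrocarbon receptor, was at 382, 219 and 833 normalized counts on chow against 0, 3.3 and 9.91 on the high fat diet, where replicate A had no read (log2 change -6.84, SE 0.81, adjusted p 0.00349). Cyp2e1, which oxidises ethanol and ketones, was at 4233, 3651 and 3103 against 63.0, 228 and 45.3 (log2 change -5.37, SE 0.57, adjusted p 0.00243), and the carboxylesterase Ces1d at 1619, 1877 and 1463 against 109, 248 and 113 (log2 change -3.50, SE 0.52, adjusted p 0.00946). The quinone reductase Nqo1 was at 1106, 871 and 1054 against 335, 542 and 411 (log2 change -1.25, SE 0.23, adjusted p 0.0308). The receptor Ahr itself was at 298, 366 and 398 against 196, 304 and 244 (log2 change -0.53, SE 0.24, adjusted p 0.689), its repressor Ahrr had a log2 change of 0.50 and the target Cyp1b1 one of 0.67, neither past the test. Adipocytes also express Cyp2e1 and Ces1d, and the adipocyte list moved in the same libraries. The part of fat cells in these falls was not tested. Calls in this list were 2 without chow replicate A, without high fat replicate A and without high fat replicate C, and 3 (Cyp1a1, Cyp2e1 and Ces1d) without the libraries numbered 87 and 88. Cyp1a2, also on the list, was not analysed here.

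The set of genes with the largest falls held 6 others. The glutathione transferase Gsta3 was at 1039, 1345 and 1443 normalized counts on chow against 161, 244 and 90.6 on the high fat diet (log2 change -3.04, SE 0.38, adjusted p 0.00408), and the carboxylesterase Ces2e at 365, 114 and 90.9 against 13.5, 21.5 and 23.4 (log2 change -2.98, SE 0.40, adjusted p 0.00684). The cysteine dioxygenase Cdo1 was at 7065, 9995 and 10018 against 735, 3233 and 1346 (log2 change -2.60, SE 0.50, adjusted p 0.0376). Pyruvate carboxylase, Pcx, was at 502, 680.3 and 711 against 115, 216 and 136, retinol-binding protein 4, Rbp4, at 2069, 2197 and 1407 against 227, 804 and 469, and the membrane adaptor Plekhb1 at 586, 351 and 193 against 39.3, 83.4 and 87.8. High fat replicate A was the lowest of the high fat libraries in 27 of the 29 lower genes (93.1%), against 38.4% of all genes tested. Among genes picked out after their values were seen, the branched-chain amino acid enzymes Ivd (1205, 1031 and 754 on chow against 351, 491 and 437 with high fat) and Aldh6a1 (1431, 1317 and 1038 against 319, 529 and 409) fell as well, as did the efflux transporter Abcg2 (5733, 4778 and 4606 against 1651, 3065 and 2095).

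A single gene of the 12 on the smooth muscle and pericyte list fell, against 0.133% of all genes tested. Kcnj8 (ENSMUSG00000030247), the pore of a vascular potassium channel closed by ATP, was at 2519, 2568 and 3247 normalized counts on chow against 518, 903 and 793 on the high fat diet (log2 change -1.94, SE 0.25, adjusted p 0.00459). The other 11 genes of the list were lower without passing (median -0.995 over the 12 genes), including its channel partner Abcc9 at 408, 523 and 639 against 259.7, 193 and 169.9 (log2 change -1.33, SE 0.69, adjusted p 0.804), the pericyte gene Rgs5 at 7262, 11473 and 7002 against 3017, 5712 and 3995 (log2 change -1.03, SE 0.34, adjusted p 0.319), and the smooth muscle actin Acta2 at 12795, 8252 and 3700 against 2016, 4783 and 4095. The groups of 8 of the 12 genes did not overlap, against 6.84% of all genes for this direction. The sum of the list was 28270, 26950 and 18220 on chow against 7974, 14820 and 11790 on the high fat diet. Its part in the change of Kcnj8 was not tested.

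**Figure D3:**
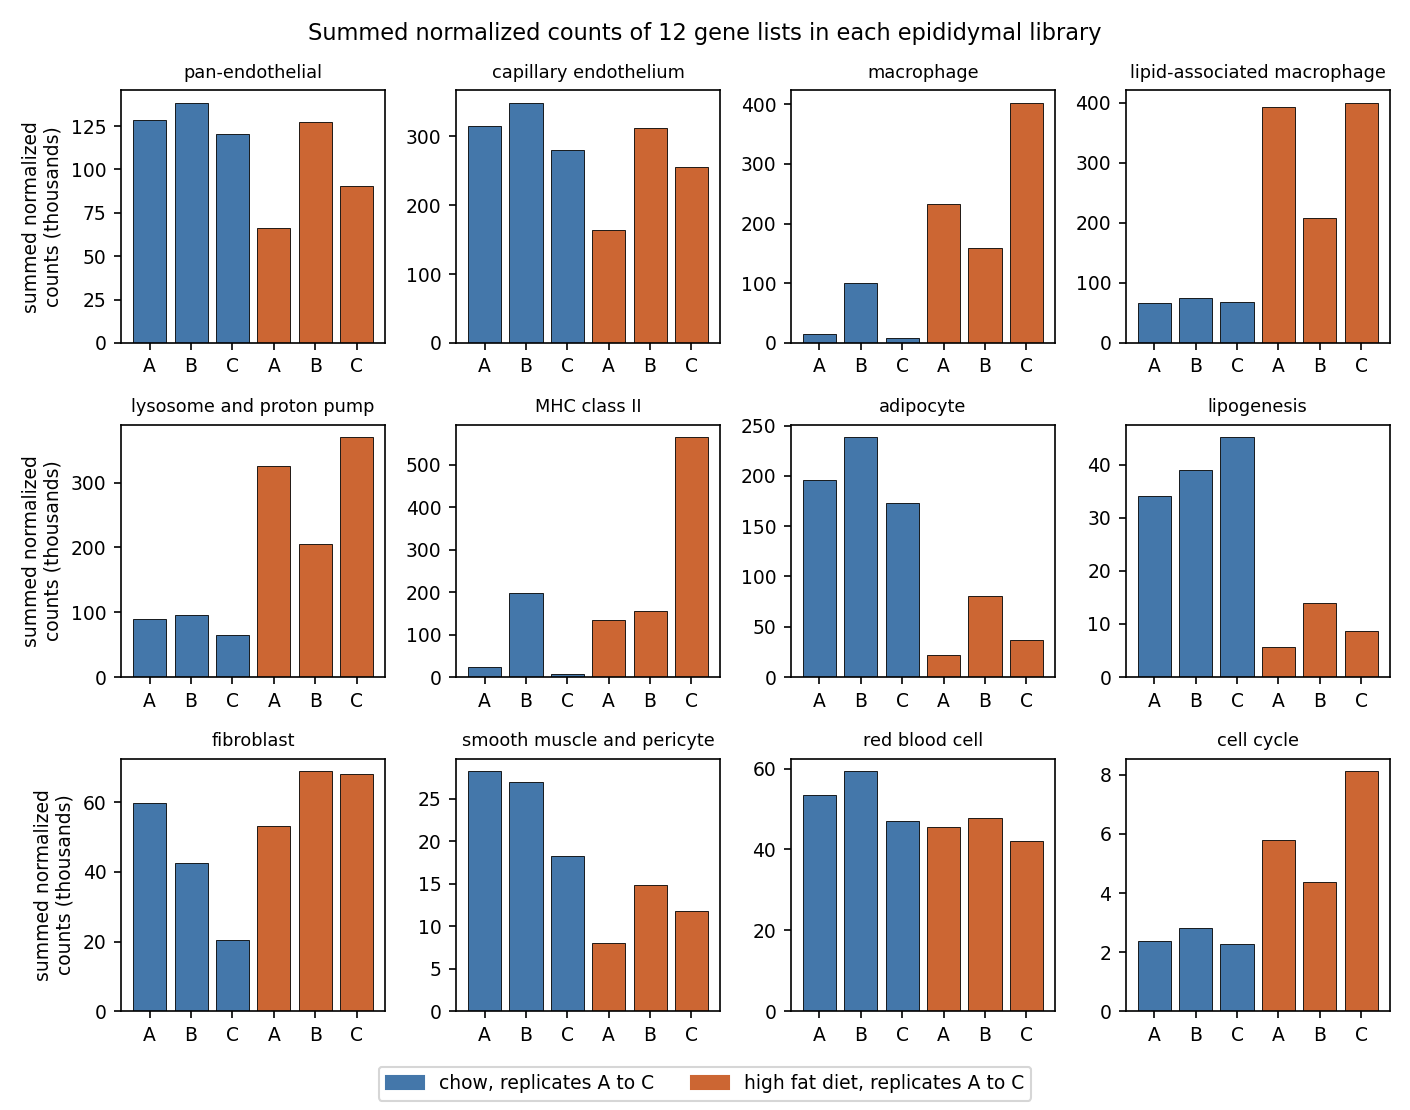
Summed normalized counts, divided by 1000, of 12 gene lists in each epididymal library, blue for chow and orange for the high fat diet. Chow replicate B carries a high macrophage and MHC class II sum but a lipid-associated macrophage sum like the other chow libraries, and high fat replicate A has the lowest pan-endothelial sum.

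Endothelial identity genes did not pass with limma in any of the lists. Of 20 pan-endothelial genes none was called by limma, 18 had negative changes and the median was -0.50. An unadjusted p under 0.05 was found for 7, against 7.15% of all genes tested. DESeq2 called Emcn, against 4.31% of the genes to which it gave an adjusted p. The groups of 5 of the 20 genes did not overlap, all lower, against 6.84% of all genes tested. The sum was 128700, 138600 and 120200 normalized counts on chow against 66190, 127100 and 90340 on the high fat diet: high fat replicate B was within the range of the chow libraries and high fat replicate A lowest. The sialomucin Emcn came nearest to the threshold, with 8903, 11309.9 and 12341 against 3554, 7379.6 and 4647 (log2 change -1.12, SE 0.28, adjusted p 0.142), and passed without high fat replicate B (log2 change -1.40, adjusted p 0.0366). The receptor for vascular growth factor, Kdr, was at 5655, 7837 and 6794 against 2347, 5946 and 3518 (log2 change -0.87, SE 0.36, adjusted p 0.563), and Tie1 at 3307, 3625 and 2742 against 1437, 2971 and 1934 (log2 change -0.66, SE 0.24, adjusted p 0.415). By bed, the median change was -0.21 for 10 arterial genes, -0.43 for 10 capillary genes, -0.24 for 8 venous genes and -0.76 for 8 lymphatic genes. Unadjusted p-values under 0.05 numbered 3, 1, 1 and 1 in these lists, against 7.15% of all genes tested. Limma called none, and DESeq2 called the capillary gene Timp4. Genes lower without overlap numbered 2, 1, 2 and 4. In the other direction 1 venous gene was higher without overlap, against 7.07% of all genes tested. Timp4, a metalloprotease inhibitor, was at 48995, 33692 and 33057 against 5772, 16246 and 11299 (log2 change -1.90, SE 0.49, adjusted p 0.148). The venous transcription factor Nr2f2 was at 1293, 1028 and 635 against 401, 599 and 432 (log2 change -1.01, SE 0.33, adjusted p 0.306).

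The fatty acid transport route of the endothelium gave no limma call among 20 genes (median -0.17). Of these 7 had an unadjusted p under 0.05, against 7.15% of all genes tested. DESeq2 called Pparg, against 4.31% of the genes to which it gave an adjusted p. Without overlap, 4 genes were higher and 2 lower, against 7.07% and 6.84% of all genes tested. Cd36 was at 113848, 159288 and 109109 normalized counts on chow against 86854, 141583 and 134265 on the high fat diet, Fabp4 at 299542, 506767 and 456785 against 319411, 465212 and 344598, and Gpihbp1 at 67761, 72283 and 62983 against 31060.5, 64731 and 45974; their groups overlapped. Higher without passing were the lipase Lpl at 14614, 18368 and 15184 against 43886, 22122 and 40823 (log2 change 1.09, SE 0.48, adjusted p 0.622) and its inhibitor Angptl4 at 5184, 5296 and 4267 against 6786, 9813 and 10151 (log2 change 0.84, SE 0.36, adjusted p 0.59). The nuclear receptor Pparg, which drives the route, was at 4047, 2953 and 3879.7 against 1601, 2765 and 2307 (log2 change -0.73, SE 0.21, adjusted p 0.198). Macrophages and fat cells express several of these genes too, and their share was not tested.

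Angiogenesis, adhesion and vessel tone genes likewise gave no limma call. Unadjusted p-values under 0.05 numbered 3 of 17, 4 of 11 and 4 of 14 genes, against 7.15% of all genes tested. DESeq2 called Igfbp3 in the first list, Ccl2 in the second and Nos3, Ptgs1 and Tfpi in the third. Its share was 4.31% of the genes to which it gave an adjusted p. Genes lower without overlap numbered 3, 2 and 5 in these lists, against 6.84% of all genes tested. Genes higher without overlap numbered 0, 4 and 0, against 7.07%. Of the 17 angiogenesis and tip cell genes 15 had negative changes (median -0.45). Igfbp3, an IGF-binding protein of vessels, was at 4737, 3857 and 2419 normalized counts on chow against 694, 2407 and 1654 on the high fat diet (log2 change -1.33, SE 0.39, adjusted p 0.219), and Angpt2, the ligand that loosens vessels, at 1176, 1400.5 and 1011 against 542, 1053 and 669.6 (log2 change -0.71, SE 0.25, adjusted p 0.383). Among 11 adhesion genes the median was 0.12, and it turned to -0.02 with columns rescaled to the same total; Vcam1 was at 1019.7, 1273 and 871 against 749.8, 859 and 784, lower without overlap, and Icam1 at 1129, 1175 and 485 against 703, 858 and 1093. Without chow replicate B the selectin ligand Selplg passed in this list. Of 14 genes of vessel tone and anticoagulation 13 were lower (median -0.43). The nitric oxide synthase Nos3 was at 1016, 1066 and 1052 against 510.4, 808 and 633 (log2 change -0.71, SE 0.19, adjusted p 0.157), with no overlap, and the flow-responsive factor Klf2 at 3012, 2751 and 1673 against 2048, 2501 and 2538. A missed threshold does not show that the levels were equal.

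**Figure D4:**
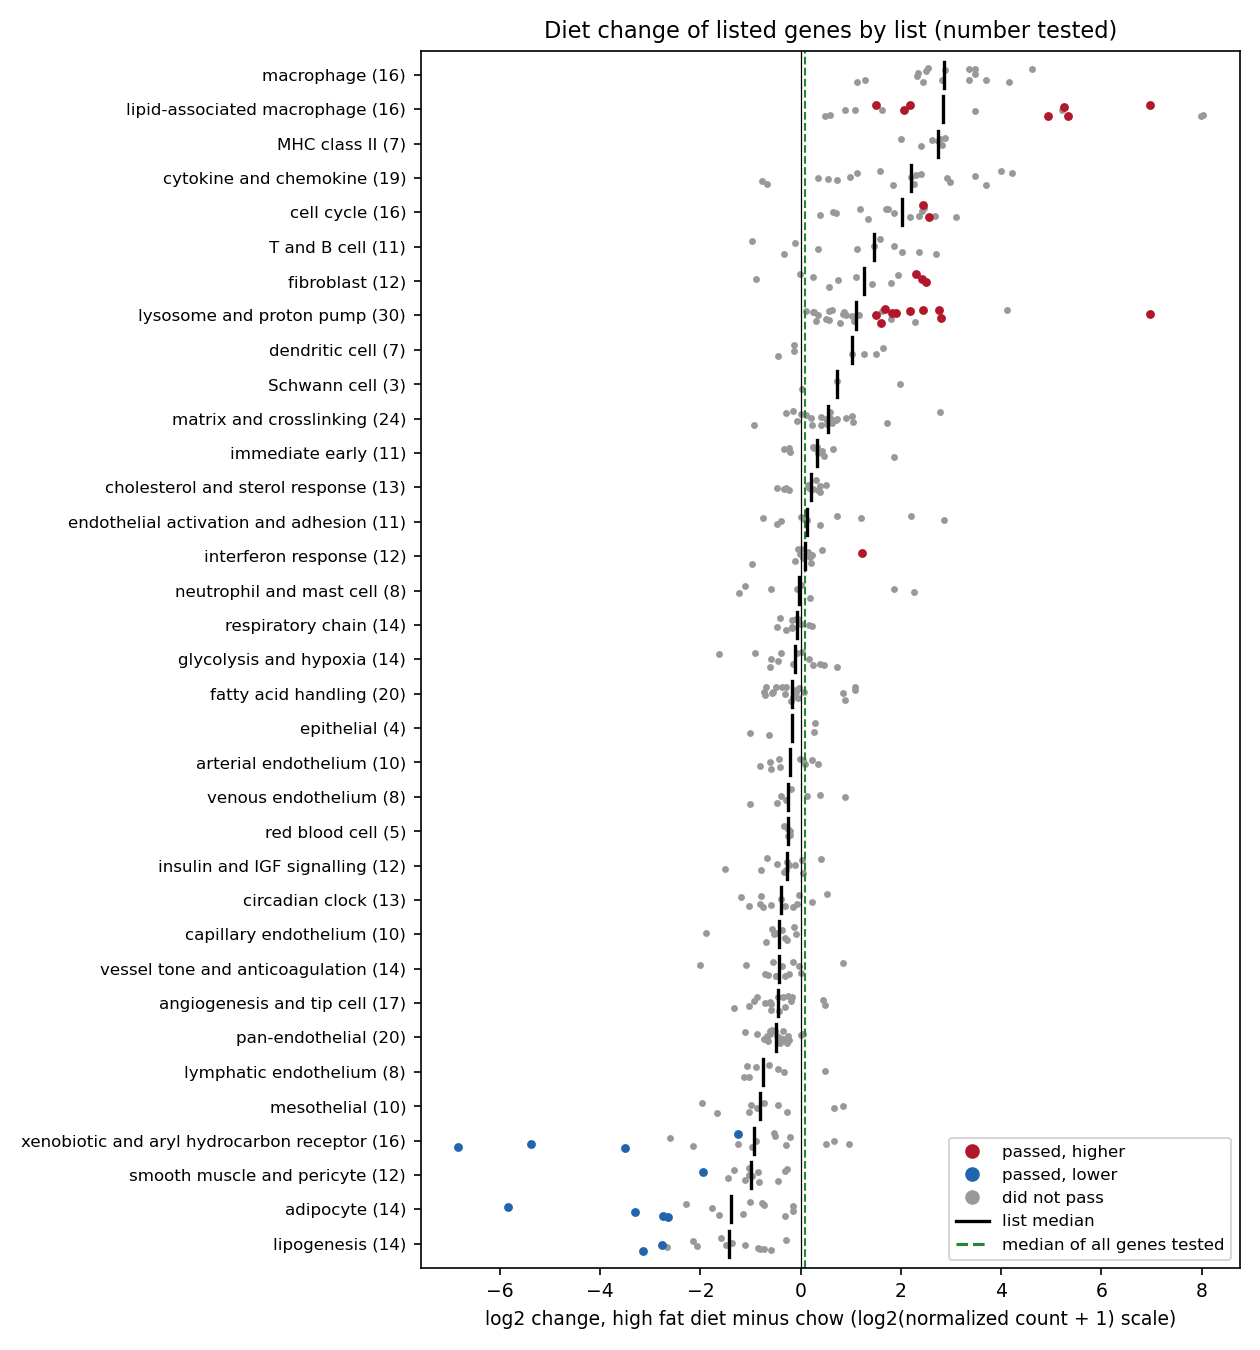
Log2 change of every listed gene that was tested, by list, with the number tested in brackets; black bars are list medians, the dashed line is the median of all genes tested, and coloured points passed an adjusted p of 0.05. Passed genes lie in the macrophage-associated, lysosomal, fibroblast, cell cycle and interferon lists on the right and in the adipocyte, lipogenesis, xenobiotic and mural lists on the left, and none lies in the endothelial lists.

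The other lists held 1 gene called by limma between them. Of 12 interferon response genes Oas1a, a sensor of viral RNA, rose, with 348, 388 and 244 normalized counts on chow against 716, 676 and 864 on the high fat diet (log2 change 1.22, SE 0.20, adjusted p 0.0172), while Rsad2, another interferon target, was at 2488, 2633 and 2628 against 1106, 1910.2 and 1091 (log2 change -0.97, SE 0.21, adjusted p 0.066); the call of Oas1a was lost without chow replicate A, without chow replicate C and without either high fat replicate A or C, and without high fat replicate B Rsad2 passed as lower. No gene passed with limma in the lists of glycolysis and hypoxia (median -0.11), the respiratory chain (-0.07), cholesterol response (0.21), insulin and IGF signalling (-0.28), the circadian clock (-0.39) or immediate early genes (0.32). In these 6 lists unadjusted p-values under 0.05 numbered 2, 0, 1, 3, 2 and 1, against 7.15% of all genes tested. DESeq2 called Ndrg1 in the first, Igfbp5 and Foxo1 in the insulin list and Atf3 in the last. Its share was 4.31% of the genes to which it gave an adjusted p. Limma and DESeq2 called no gene of dendritic cells (1.03), mesothelium (-0.80), red blood cells (-0.25), epithelium (-0.18) and Schwann cells (0.72), where unadjusted p-values under 0.05 numbered 1, 1, 0, 0 and 1. Neutrophil and mast cell genes (-0.04), with no call by limma or DESeq2 and 1 unadjusted p under 0.05, were uneven in the chow group: the mast cell protease Mcpt4 was at 0, 0 and 422 against 4.5, 0 and 4.95, that is, present in chow replicate C and at or near 0 elsewhere. In all, 31 of the 117 genes belonged to at least 1 list, 20 higher and 11 lower.

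The called genes were alike in the order of the libraries within a diet. Among the 88 higher genes high fat replicate B was the lowest high fat library in 84 (95.5%), against 36.3% of all genes tested, and chow replicate B was the highest chow library in 70 (79.5%), against 23.6%. Among the 29 lower genes high fat replicate B was the highest of its group in 23 (79.3%), against 26.5%. The 88 genes took 0.932, 1.06 and 0.814% of the reads on chow against 5.01, 2.7 and 4.76% on the high fat diet; the 29 genes took 1.42, 1.6 and 1.57% on chow against 0.118, 0.416 and 0.15% on the high fat diet. High fat replicate B thus lay nearest to chow in both directions. It also had the lowest macrophage sum and the highest adipocyte sum of the high fat libraries. These orders come from the values that chose the genes and are descriptions.

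A further 113 genes had a change of at least 3 on the log2 scale, groups that did not overlap and, in the group with more, a mean of 100 or above, without passing; 103 of them were higher. Besides Mmp12, Gpnmb and Cd68 they include Itgax, the integrin subunit CD11c, at 2.35, 80.8 and 4.08 normalized counts on chow against 482, 211 and 681 on the high fat diet (log2 change 5.21, SE 1.31, adjusted p 0.141). Of the 113, 55 passed in the fit of the 6 epididymal libraries alone. That fit estimates the spread from these libraries only and called 228 genes in all, of which 90 were among the 117.

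The change in epididymal fat was set against the change in the mesentery sort from mice on the same diets. The tissues share library numbers and letters, the labels do not say whether a number marks the same mice, and the test treats the 12 libraries as independent. The difference of the diet effects passed the test for 1 gene of 21790 (0.00459%), Kcnj8. In mesentery Kcnj8 was at 80.8, 102 and 144 normalized counts on chow against 384, 319 and 369 on the high fat diet, a log2 change of 1.74 in the other direction from epididymal fat, and the difference was -3.68 (SE 0.35, adjusted p 0.00232). The smooth muscle and pericyte list had a median change of 0.83 in mesentery, against -0.995 in epididymal fat. Of the 117 genes, 98 had an unadjusted p under 0.05 for this difference, but they were chosen for their change in epididymal fat, so this count supports nothing. Cyp1a1 fell in both tissues: in mesentery it was at 1685, 1852 and 3980.2 on chow against 12.2, 2.77 and 10.9 on the high fat diet (log2 change -8.11, adjusted p 0.00402). It was the only one of the 117 to pass in mesentery. Adiponectin in mesentery was at 502, 398 and 808 against 1314, 721 and 912 (log2 change 0.81), and Lipa at 1511, 1125 and 1345 against 1401, 1155 and 1167 (-0.09). For these genes the difference between tissues did not pass after adjustment.

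**Figure D5:**
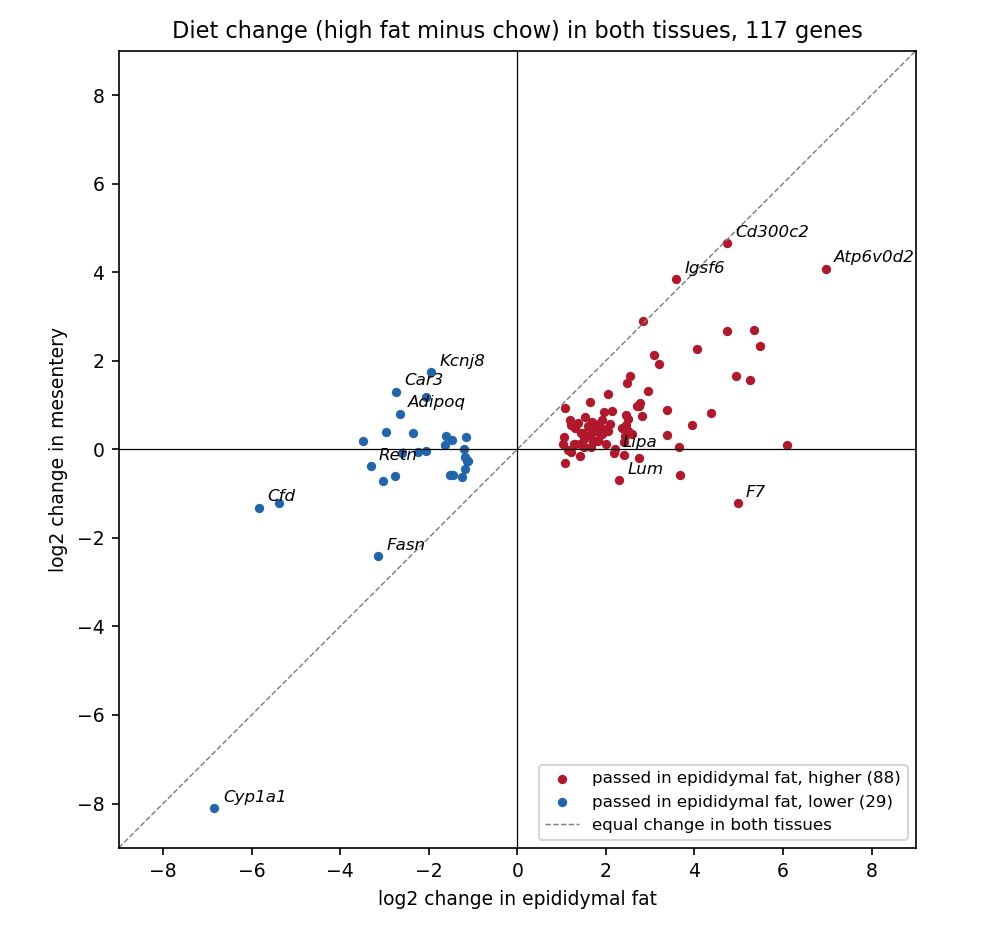
Log2 change with diet in epididymal fat (horizontal) and in mesentery (vertical) of the 117 genes that passed in epididymal fat; red genes were higher and blue genes lower there, and the dashed line marks equal change. Cyp1a1 lies near the line at the lower left, Cd300c2 and Igsf6 near it at the upper right, and Kcnj8 has opposite signs in the 2 tissues.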

How the data were processed

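Bulk RNA-seq measured 12 libraries in 4 groups of 3, taken from the sample titles. Per the submitters' processing notes the authors used STAR 2.7.9a, featureCounts of Subread, DESeq2 1.34.0 and the build mm39; annotation and strand setting are not given in the sources used here. The deposited values are normalized counts, a signal that is never negative. They were whole reads times 1 step a library for 100% of values (tolerance 0.001 reads), and the reciprocal steps equalled median-of-ratios size factors.

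From these values log2(normalized count + 1) was fitted with limma 3.58.1 in R 4.3.3: 1 mean for each of the 4 groups, eBayes with a mean-variance trend, two-sided, Benjamini-Hochberg adjustment over all 21790 genes with a mean of at least 10 in epididymal fat. The recovered read counts, from the authors' deposited values, were also tested with edgeR 4.0.16 and DESeq2 1.42.0. The 12 libraries held 8348897 to 25397963 reads in genes. The 3-read floor covers counting error only, whereas the SEs are limma's and rest on the spread between libraries. On simulated data limma recovered 76% of changes of 2 and 94% of changes of 4 (log2), with 5.03% false calls. These rates describe the simulated data only. The real data gave 23 to 167 calls when 1 epididymal library was left out, and whether the rates hold for them was not tested.

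Named genes are up to 15 a direction with the largest change among genes past the threshold, with non-overlapping groups of which the higher averages 100 or more, skipping pseudogenes, predicted genes and unnamed or shared names; members of 35 lists (437 genes, 431 tested), Cdh5 and Pecam1 are named too. Members, lists and tests were chosen with earlier results of these data known, so list counts and medians are descriptions. Lists tested or summed were pan-endothelial, arterial, capillary, venous and lymphatic endothelium, fatty acid handling, angiogenesis, adhesion, vessel tone, macrophage and its lipid-associated form, lysosome, lymphoid, MHC class II, dendritic, neutrophil and mast cell, cytokine, interferon, adipocyte, lipogenesis, xenobiotic, fibroblast, matrix, mesothelial, mural, red blood cell, epithelial, Schwann, cell cycle and 6 metabolic, signalling and clock lists. Alternatives were other pseudocounts (0.5 and 5), filters, scalings, sample sets, a number-range covariate, a replicate block, array weights and leaving out each epididymal library. For the difference between tissues a block on the library number was added. No mesentery library was left out singly. The mesentery was used for the shared spread and the difference between tissues only.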

Additional observations from a re-analysis of the deposited data

Results flagged for a closer look

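The diet effect on Kcnj8 differed between the tissues by -3.68 in log2 units (SE 0.35; limma's interaction contrast, adjusted p 0.00232), which is the test that singled it out. In epididymal fat all 3 high fat libraries were lower than all 3 chow libraries, and in mesentery all 3 high fat libraries were higher than the chow libraries. Chow levels were 2519, 2568 and 3247 normalized counts in epididymal fat and 80.8, 102 and 144 in mesentery. The smooth muscle and pericyte list, which holds Kcnj8, went the same ways: its median change was -0.995 in epididymal fat and 0.83 in mesentery, where 8 of 12 genes were higher and its sum was 1903, 1647 and 1881 normalized counts on chow against 4073, 2297 and 4804 with high fat. The median difference between tissues over the list was -1.56. Its part in the difference of Kcnj8 was not tested.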

How the results depend on the processing

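The limits are the number of libraries and their spread: 3 pooled samples a diet, 2 of 6 libraries apart from the rest, and low genes for which 3 reads are worth up to 3.37 normalized counts. Against 117 calls, limma gave 175 calls with a mean of at least 50, 82 with TMM factors, 107 with columns rescaled to the same total, 228 with the 6 epididymal libraries only, 169 with the number range as a covariate, 21 without the libraries numbered 87 and 88 and 2402 with array quality weights, whose estimation stopped before it converged. The read-count tests gave 35 (edgeR) and 572 (DESeq2). Leaving out 1 epididymal library at a time gave 23 to 167 calls. Other pseudocounts and no filter gave 106 to 137. The single call for the difference between tissues became 11 without the libraries numbered 87 and 88 and 2 with the letter as a replicate block. It became 700 with array quality weights, 135 with DESeq2, and 1 to 10 when 1 epididymal library was left out. The cause of these moves was not tested. No change of sign occurred among the called genes under the 19 alternatives, and 1529 of their values kept the call and 693 lost it. Their groups did not overlap, so settings that only leave out libraries could not have changed a sign. Medians of the adhesion, dendritic cell, neutrophil and mast cell, interferon, epithelial, glycolysis, respiratory chain and immediate early lists changed sign under at least 1 setting.

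Deviations of same-letter libraries from their group means correlated at -0.675, 0.436 and -0.652. Chow and high fat libraries of the same number range correlated at 0.436 to 0.84, and those of different ranges at -0.675 to -0.632. Letters A and C each join libraries of different ranges, so these values cannot show whether the letters mark pairs. A replicate block on the letter gave 94 calls, and 91 of these genes belong to the 117. Library numbers are shared by the tissues, and same-number deviations correlated between them at -0.133 to 0.576. Libraries from the same mice need not deviate alike in 2 tissues, so these values cannot show whether numbers mark pairs. The main test did not take the numbers as pairs. The library number as a replicate block, an alternative chosen after seeing the data, gave 2 calls for the difference between tissues, and for Kcnj8 -3.68 (SE 0.33, adjusted p 0.01).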
